A study of Mus musculus with 2 samples.

Results

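The genes described here are the transcription factors that set up and run skeletal muscle formation and the genes that let myoblasts fuse, read in dissected internal and external carotid arteries of mouse embryos. They were taken by name, in order from progenitor to fusing myoblast, as Pax3, Pax7, Myf5, Myod1, Myog, Myf6, Mymk and Mymx, with the homeobox gene Pitx3. All 9 had at least 1 probe set, a group of short probes for 1 transcript, with 13 probe sets in all, among 18193 genes named on the arrays. Both groups, here the internal and the external pool, were vessel segments taken at E13.5 from ICR embryos, an outbred stock, with no treatment and no genetic change given in the labels. The design text gives 22 embryos, pooled, and states that nothing was replicated, so each vessel has 1 Affymetrix array and every value below is a single measurement with no p-value. RNA went through repeated amplification from the poly-A tail before labelling.

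Skeletal muscle of the trunk and limbs arises from progenitors that make the paired-box factors Pax3 and Pax7, while head muscle arises without Pax3 upstream. In all of these muscles the bHLH factors Myf5, MyoD (Myod1), myogenin (Myog) and Mrf4 (Myf6) commit cells and switch on differentiation genes by binding E-boxes together with E proteins. Differentiating myoblasts then fuse into multinucleated fibres, for which the membrane proteins myomaker (Mymk) and myomerger (Mymx) are needed. Pitx3 is made in differentiating muscle as well as in lens and midbrain dopamine neurons.

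Promoter sequences are shown for Myog and Pitx3, a pair of transcription factors that stood several-fold apart between the arrays, because E-boxes are the letters that the bHLH members of this group read. They are the 250 bases before the transcription start, from RefSeq on GRCm38.p6, which held 4 of the 9 members. Capitals mark each E-box (CANNTG, the same on both strands) and each MEF3 site (TCAGGTT, searched on both strands), a short element known from muscle gene promoters.
Myog, chr1:134289754-134290003, plus strand: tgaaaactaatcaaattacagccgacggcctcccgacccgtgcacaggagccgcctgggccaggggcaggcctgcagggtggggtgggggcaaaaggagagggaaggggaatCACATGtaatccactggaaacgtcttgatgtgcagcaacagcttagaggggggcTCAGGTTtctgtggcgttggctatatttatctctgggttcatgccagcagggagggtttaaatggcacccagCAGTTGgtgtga
Pitx3, chr19:46148326-46148575, minus strand: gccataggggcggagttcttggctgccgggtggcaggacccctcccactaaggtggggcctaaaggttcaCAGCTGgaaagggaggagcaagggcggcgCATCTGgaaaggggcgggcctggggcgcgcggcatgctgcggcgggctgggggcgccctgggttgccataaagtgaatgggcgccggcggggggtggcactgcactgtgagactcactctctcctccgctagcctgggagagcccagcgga

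The Myog window held 2 E-boxes, CACATG with its first base 138 bases before the start and CAGTTG with its first base 12 bases before it, and 1 MEF3 match beginning 84 bases before the start. The Pitx3 window also held 2 E-boxes, CAGCTG and CATCTG, beginning 180 and 151 bases before the start, and no MEF3 match. The windows of Pax7, on chromosome 4, and Myf5, on chromosome 10, held neither motif. Of 32851 promoter windows of the same length, 66.2% held at least 1 E-box, so an E-box match is common, while 4271 held CAGCTG and 3.49% held the MEF3 letters. These are matches of letters and no binding was measured.

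Values are linear signal intensities, and the ratio is internal over external carotid on the log2 scale, so a positive value is higher in the internal pool. Each array's median signal, 47.5 for internal and 52.3 for external carotid, served as a floor. Where only 1 side reached its floor, the ratio against the other side's floor bounds the difference from below and is given with the words at least. A gene was read from its brightest probe set, and genes were counted from a 2-fold difference upward. Probe sets of the same gene differed in log2 ratio with a standard deviation of 0.34, pooled over 4315 genes, which is 1.26-fold. It covers differences between probes on this pair of arrays and not between embryos or dissections.

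A ratio or bound could be had for 8 members, and 6 of them were higher by 2-fold or more in the internal pool, against none in the external pool. Among all 12419 genes with a ratio or bound, 1.51% were that much higher in the internal and 2.15% in the external pool, or 187 and 267 genes. These counts were 241 and 208 after centring the ratios on their median, 227 and 209 after quantile normalization, and 233 and 204 after loess. With bounds taken at their bound, the 8 members had a median log2 ratio of 1.95, a 3.86-fold difference, beside -0.06 for all genes. Pax7, Myod1, Myog, Mymk, Mymx and Pitx3 were the 6, and each was also past 3-fold. The members were chosen with earlier results of these data known, so their count describes these data and is no test. In bulk RNA, fewer cells of a type and less RNA per cell cannot be told apart.

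**Figure D1:**
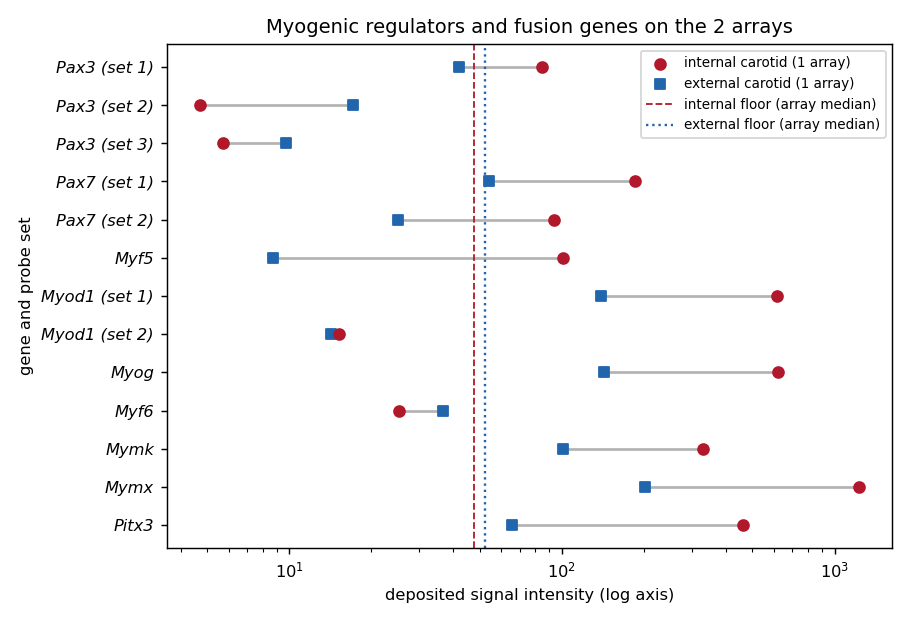
Deposited signal intensity (log axis) of the 13 probe sets of the 9 genes, internal carotid array as red circles and external carotid array as blue squares, 1 array each, joined by grey lines, with each array's median signal as a dashed or dotted line. Both readings lie right of the lines for Myod1 (set 1), Myog, Mymk, Mymx, Pitx3 and Pax7 (set 1), with the internal reading the higher, while Myf6, Myod1 (set 2) and Pax3 (sets 2 and 3) lie left of them on both arrays.

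Both progenitor factors read higher in the internal pool, with external readings near or under the floor. Pax3, which acts in the migrating progenitors of limb and trunk muscle and also in neural crest, read 84.4 in the internal and 42.0 in the external pool. The external reading was under its floor, so Pax3 was at least 1.61-fold higher in the internal pool. Its other probe sets read 4.70 and 5.70 in the internal and 17.1 and 9.70 in the external pool, all under the floors, so only 1 of 3 Pax3 probe sets gave a value.

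Pax7, which marks the progenitors kept through fetal growth and the later satellite cells, read 186.1 in the internal and 54.1 in the external pool. That was a 3.44-fold difference, a log2 ratio of 1.78, with the external reading only 1.03 times its floor. A further Pax7 probe set read 93.3 in the internal and 25 in the external pool, at least 1.78-fold higher in the former. Both Pax7 probe sets were thus higher in the internal pool, but with the floor at the 75th percentile of each array the bound for the gene was 0.28 on the log2 scale, under 2-fold.

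Pax3 and Pax7 are also made outside muscle, in neural crest and its glial derivatives. Markers of neural crest and Schwann cell precursors went the other way, with a median log2 ratio of -0.85. Of 8 measured, 4 passed 2-fold toward the external pool and none toward the internal pool, beside 2.15% and 1.51% of all genes. Tfap2b was 4.35-fold, Fabp7 3.60-fold, Foxd3 2.79-fold and Sox2 2.09-fold higher in the external pool, while Erbb3 had a log2 ratio of 0.30. With the pseudocount neither Foxd3 nor Sox2 passed 2-fold, and at the 75th percentile floor neither had a value. Sox2 also fell short under each of the 3 other scalings. The signals of the 9 markers with a probe set summed to 2405 in the internal and 3575 in the external pool, and 1 of them, Cdh19, was under both floors. Their part in the readings of Pax3 and Pax7 was not tested.

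Of the bHLH factors, Myod1 and Myog stood well above both floors and Myf5 above 1 of them. Myf5, the first of the 4 to appear in the embryo, read 101.0 in the internal and 8.70 in the external pool. The external reading was 0.17 times its floor, so the bound was at least 1.93-fold, just short of 2-fold. Pax3 and Myf5 were the members that had a bound and fell under 2-fold, and Myf5 was past 2-fold after centring (log2 1.03), quantile normalization (1.06) and loess (1.10), with the pseudocount (1.36), with the lower floor (2.59) and with no floor (3.54).

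Myod1, the factor that commits cells to the muscle lineage, read 616.1 in the internal and 139.3 in the external pool. That was a 4.42-fold difference, a log2 ratio of 2.14. A further Myod1 probe set, of a kind marked as open to cross-hybridisation, read 15.2 and 14.2, both under the floors, and gave no ratio.

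Myog, which drives terminal differentiation, read 620.4 in the internal and 143.1 in the external pool, a 4.34-fold difference. Its log2 ratio of 2.12 lay 0.03 from that of Myod1. Both factors were still measured in the external pool, at 2.66 and 2.74 times the floor.

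Myf6, the bHLH factor of later fibres, read 25.2 in the internal and 36.6 in the external pool. Both readings were under the floors, so it was given no fold, and of the 4 bHLH factors it was the 1 with the higher reading in the external pool. Myf6 lies beside Myf5 on chromosome 10, and their plain ratios pointed opposite ways, -0.54 for Myf6 and 3.54 for Myf5 on the log2 scale, each resting on at least 1 reading under the floor.

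The fusion genes were both higher in the internal pool. Mymx read 1235 in the internal and 201.7 in the external pool, a 6.12-fold difference and a log2 ratio of 2.61. Mymk read 329.4 and 101.2, a 3.25-fold difference and a log2 ratio of 1.70, with the external reading at 1.93 times its floor. Each had 1 probe set, so neither fold has a check from a further probe set.

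Pitx3 read 463.7 in the internal and 65.9 in the external pool. Its 7.04-fold difference, a log2 ratio of 2.81, was the largest ratio of the group as reported, and its external reading stood at 1.26 times the floor. Mymx was above Pitx3 with the pseudocount (2.35 and 2.15). With the 75th percentile as the floor Pitx3 at 1.59, Myog at 2.01 and also Myod1 had bounds only, beside Mymx at 2.61. These bounds set no order. With no floor Myf5 was above Pitx3, at 3.54, a plain ratio resting on an external reading of 8.70, under the reported floor. Markers of the other sites of Pitx3 were mostly unread. Of 10 lens markers, 8 were under both floors, the defining crystallin gene Cryaa among them, and the list summed to 263 in the internal and 208 in the external pool. Crybb3 had a bound of 0.52 and Lim2 of -0.21. Of 9 midbrain dopamine neuron markers, 8 were under both floors, including the dopamine transporter gene Slc6a3, and the list summed to 381 and 422. Its 1 measured gene, Nr4a2, had a log2 ratio of -0.03, which was above 0 after centring, quantile normalization and loess.

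**Figure D2:**
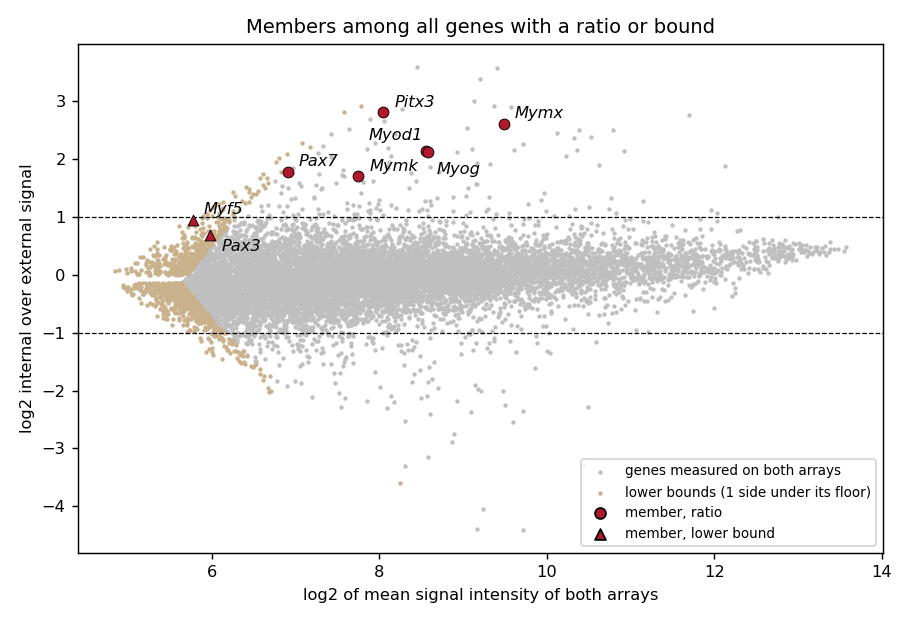
Log2 ratio of internal over external carotid signal against the log2 mean signal of both arrays, 1 point per gene, with ratios in grey, lower bounds in tan, members in red (circles for ratios, triangles for bounds) and dashed lines at 2-fold. The 6 members with a ratio lie between 1.70 and 2.81, above the upper line, and Pax3 and Myf5 lie at the dim edge at bounds of 0.69 and 0.95.

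By the size of the difference the 6 genes ran Pitx3, Mymx, Myod1, Myog, Pax7 and Mymk. They held places 8, 12, 30, 33, 48 and 55 among the 11255 genes measured on both arrays. Neighbours in this order differed by 0.20 (Pitx3 and Mymx), 0.47 (Mymx and Myod1), 0.03 (Myod1 and Myog), 0.33 (Myog and Pax7) and 0.08 (Pax7 and Mymk) on the log2 scale. With the spread of 0.34 for 1 probe set, a difference between a pair of probe sets has a standard deviation of 0.48, and no neighbouring pair differed by more. The order also turned with the processing. Pax7 was below Mymk with the pseudocount (1.18 and 1.33) and with the median over probe sets (1.31 and 1.70), where 1 Pax7 probe set was a bound. At the 75th percentile floor Pitx3, Myod1, Myog, Pax7 and Mymk all had bounds only, which set no order. The bounds of Pax3 and Myf5 set no place.

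The members were not all of 1 brightness, so the share of all genes past 2-fold was read at similar signal. Split into 5 equal groups by mean signal, genes higher in the internal pool made up 0.725% of the dimmest, which held Pax3 and Myf5, 1.81% of the next, with Pax7, 1.77% of the middle, with Mymk, 1.49% of the fourth, with Myod1, Myog and Pitx3, and 1.73% of the brightest, with Mymx. The dimmest of these groups had a median log2 ratio of -0.21 and the brightest of 0.11.

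Genes whose readings lay closest to a member's were found by the distance between log2 signals on the 2 arrays, over genes measured on both. With 2 arrays this describes closeness of readings only. Myod1 and Myog were each other's closest, at a distance of 0.04, followed for both by the myosin light chain gene Myl1 and the calcium store gene Casq2. Closest to Pitx3 were the neutrophil gene Ngp, the thin filament gene Neb and the calcium release channel gene Ryr1. Closest to Mymx were the myosin gene Myh7, Med18 and Barx1. Those closest to Pax7 were the sarcomere gene Mypn, Cacna1d and Rmi1, and those closest to Mymk were Plac1, Car3 and Msc. The distances ran up to 0.45, for Barx1.

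The further genes of the pathway were taken from lists by role. These lists too were chosen with earlier results of these data known, so their counts describe these data and are no test. Of 12 measured genes that act upstream of or beside the members in muscle progenitors, 4 were at least 2-fold higher in the internal pool. In the external pool 1 was, beside 1.51% and 2.15% of all genes for the internal and the external pool. The list's median log2 ratio was 0.61. Fgfr4, an FGF receptor of muscle progenitors, read 378.8 and 84.4, a 4.49-fold difference, though its other measured probe set had a log2 ratio of 0.20. Msc, a bHLH factor of head muscle progenitors, was 3.26-fold higher in the internal pool, and Tcf21, its partner in branchial arch muscle, at least 2.63-fold. Lbx1, the homeobox gene of migrating limb muscle progenitors, was 3.07-fold higher, with an external reading of 53.1 beside a floor of 52.3. Six4, a homeobox gene, had a log2 ratio of 0.62, with 0.05 and 0.09 at its other measured probe sets. Eya1, a transcriptional cofactor, was higher in the external pool by at least 2.72-fold. Tbx1, a regulator of branchial muscle, had a log2 ratio of -0.38, Megf10, a receptor of satellite cells, of -0.35 and the chemokine receptor gene Cxcr4 of -0.34. With the floor at the 75th percentile Fgfr4 was the 1 gene, of 8 measured in this list, still past 2-fold. At that floor 1.29% of all genes were that much higher in the internal pool.

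Most partners of the bHLH factors were within 2-fold, as were most of all genes. Of 15 measured, Vgll2, a TEAD cofactor of skeletal muscle, was the 1 gene at least 2-fold higher in the internal pool. It read 853.4 and 288.4, or 2.96-fold, and no gene of the list passed 2-fold in the other direction. Among all genes the shares were 1.51% toward the internal and 2.15% toward the external pool. The list's median log2 ratio was 0.08. The chromatin subunit gene Smarcd3 had a log2 ratio of 0.65 and the E protein gene Tcf4 of 0.56. Ep300, a histone acetyltransferase, was lowest at -0.33, before Vgll3 at -0.25, which was above 0 without probe sets of shared transcripts, and Mef2d at -0.05, which was above 0 after centring.

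Among inhibitors of myogenic factors or of muscle differentiation, none of 13 measured passed 2-fold, beside 1.51% and 2.15% of all genes in the 2 directions. With no floor Bhlhe41 did, with both readings under the floors. Of the 13, 10 were below 0 and the median log2 ratio was -0.33. Ccnd1, the cyclin that keeps cells dividing, had a log2 ratio of -0.76, with -1.06 and -0.72 at its other probe sets, Id3, which sequesters E proteins, of -0.58 and the Notch target Hey1 of -0.56. Highest were Id4 at 0.26, Hdac5 at 0.06 and Mdfi, which holds myogenic factors in the cytoplasm, at 0.01, with 0.73 at its other probe set. The other inhibitor of DNA binding genes, Id1 and Id2, had log2 ratios of -0.33 and -0.27.

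Of 24 measured genes of the wider adhesion and fusion machinery, 1 was past 2-fold in each direction, beside 1.51% and 2.15% of all genes for the internal and the external pool. The median log2 ratio was -0.04, which was above 0 after centring, quantile normalization and loess. Cdh15, the cadherin of myoblasts, read 354.0 and 162.5, or 2.18-fold higher in the internal pool, but under 2-fold with the pseudocount. Crkl, an adaptor protein gene, and Cdon, a receptor that promotes myoblast differentiation, followed at 0.85 and 0.64. Jam2, an adhesion molecule gene that endothelium also makes, was 2.71-fold higher in the external pool, with -1.41 and -0.04 at its other measured probe sets, and fell short of 2-fold with the pseudocount and the 75th percentile floor. Dock5 stood at -0.87, with 0.18 at a further probe set, and Cd9 at -0.80. Nfatc2 joined Cdh15 past 2-fold after centring, quantile normalization and loess.

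**Figure D3:**
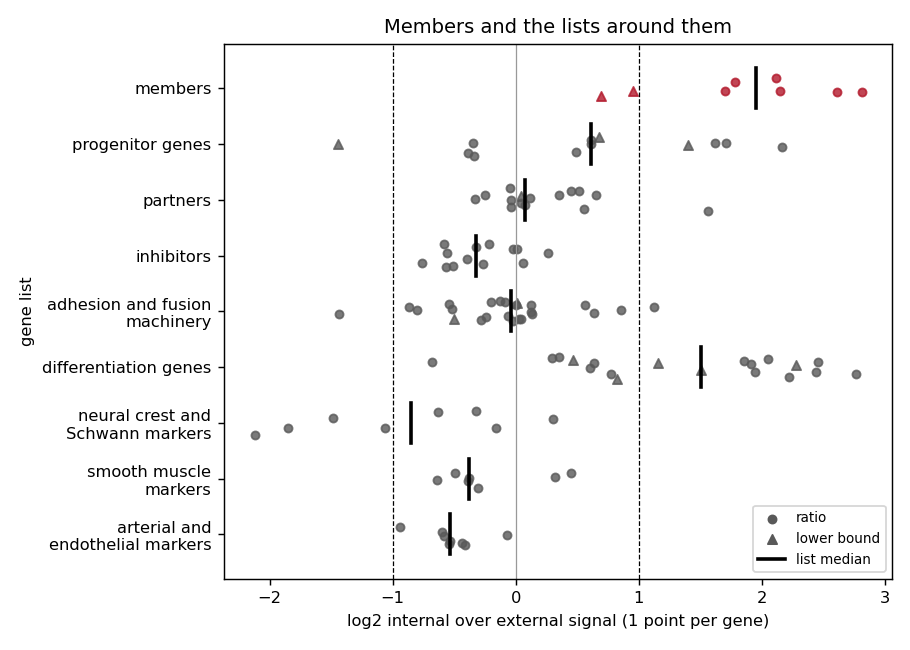
Log2 ratio of internal over external carotid signal for each measured gene (circles for ratios, triangles for lower bounds) in 9 lists, with list medians as black bars, dashed lines at 2-fold and vertical scatter added for legibility. The members (red) and the differentiation genes have medians of 1.95 and 1.51, while partners, inhibitors and fusion machinery lie between -0.33 and 0.08 and the neural crest, smooth muscle and arterial lists below 0.

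Genes switched on as myoblasts differentiate were mostly higher in the internal pool. Of 19 measured, 11 were at least 2-fold higher in the internal pool and none in the external pool, beside 1.51% and 2.15% of all genes. The median log2 ratio was 1.51, with summed signals of 20093 and 6722. The acetylcholine receptor subunit gene Chrna1 read 439.3 and 114.2, a 3.85-fold difference, and the cell cycle inhibitor gene Cdkn1a 1014 and 269, a 3.77-fold difference. Klhl41, a sarcomere protein gene, was 4.66-fold higher, Myl4 5.49-fold and Acta1 4.14-fold, and Klhl40 and Lmod3 at least 2.85-fold and 2.23-fold. The remaining 4 of the 11 were Myh3, Des and Myl1, at 6.80-fold, 5.42-fold and 3.62-fold, and Chrng, at least 4.85-fold. Further measured probe sets of Myl4 and Des had log2 ratios of 0.16 and -0.34. At the 75th percentile floor 7 of 11 measured genes were past 2-fold toward the internal pool, beside 1.29% of all genes. There Klhl41, whose external reading was 56.6, and Chrng had bounds under 2-fold, at 0.78 and 0.72. Klhl40 and Lmod3 had no value at that floor. Myl1 and Acta1 had no value once probe sets of shared transcripts were left out. At the low end were the methyltransferase gene Smyd1 at -0.68, with other probe sets from -0.42 to 1.27, Chrnb1 at 0.30 and Hspb3 at 0.35. The part of differentiating muscle in the members' difference was not tested.

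Markers of heart muscle were mostly unread, with 5 of 9 under both floors, including Nppa and Myl7, and sums of 386 and 308. Of 4 measured, Myh6 had a bound just past 2-fold toward the internal pool, and Nkx2-5 had a bound of 0.46. Nppb and Myl2, above the floors on both arrays, had log2 ratios of -0.26 and -0.11. The Myl2 ratio was above 0 after quantile normalization and loess. The median of the 4 was 0.17, and 1.51% of all genes were past 2-fold toward the internal pool. With the pseudocount Myh6 was under 2-fold, and at the 75th percentile floor it had no value. Of 4 measured tendon markers, 3 were below 0. The list had a median log2 ratio of -0.52 and sums of 934 in the internal and 1099 in the external pool. Thbs4, whose external reading of 47.9 was under its floor, was at least 2.99-fold higher in the internal pool. It was under 2-fold at the 75th percentile floor. Tnmd stood at -0.70, Egr1 at -0.34, and Scx, under its floor in the internal pool, had a bound of -0.71. The 1 remaining tendon marker was under both floors.

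Markers of the labelled tissue were read on both arrays. Smooth muscle markers summed to 13048 in the internal and 11212 in the external pool, with a median log2 ratio of -0.38 over 7 genes, 5 of them below 0. Without Acta2, which read 9482 and 6952, the other 7 genes with a probe set summed to 3566 and 4259. The log2 ratio of Acta2 was 0.45, and 0 after quantile normalization. Arterial and endothelial markers summed to 3753 and 5140, with a median of -0.54 over 8 genes and the connexin gene Gja4 at -0.41, and Gja5 and Pecam1 were under both floors. As reported, no gene of either list passed 2-fold, beside 1.51% and 2.15% of all genes toward the internal and the external pool. Of the other scalings, floors and probe set rules, the 25th percentile floor put 1 arterial or endothelial gene past it toward the external pool. Leaving out the floor put 1 past it in each direction, and the rest put none.

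**Figure D4:**
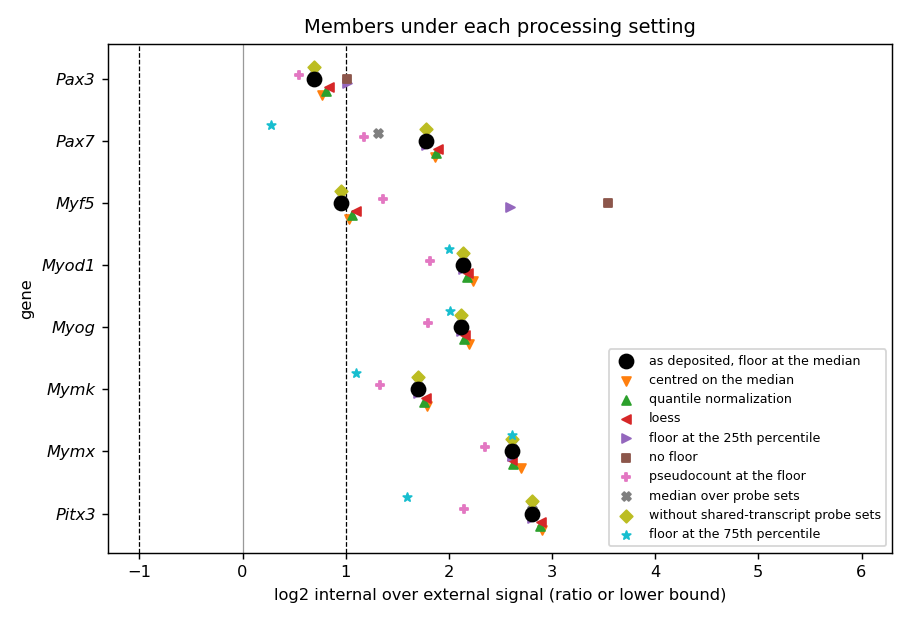
Log2 ratio or lower bound of the 8 members with a reported value (internal over external carotid) under 10 processing settings, the reported setting as a large black circle and each alternative as a smaller symbol, with dashed lines at 2-fold. Myod1, Myog, Mymk, Mymx and Pitx3 lie above 1 under every setting drawn, Pax7 under all but the 75th percentile floor, and Myf5 runs from 0.95 to 3.54.

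Across the scalings, floors and probe set rules tried, Myod1 ranged from 1.82 to 2.23 on the log2 scale, Myog from 1.80 to 2.20 and Mymx from 2.35 to 2.70. Mymk ranged from 1.10 to 1.79 and Pitx3 from 1.59 to 2.90, their lowest values coming with the floor at the 75th percentile, which their external readings did not reach. Pax7 ranged from 0.28 to 1.89 and Pax3 from 0.55 to 1.01. Where Myf6 was given a value, with the lower floor and with none, it was -0.54, the 1 member below 0.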

How the data were processed

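The deposited table gives an intensity on a linear scale for each probe set. Per the submitters' processing notes the authors used GCOS 1.4 and MAS5. The trimmed mean intensity, leaving out 2% at each end, was 150 on both arrays, so they were used as deposited. Of 45101 probe sets, 64 were controls and left out, and 34945 were annotated to 1 gene, whose symbol was brought up to date from RefSeq (GRCm38.p6, names and promoters only). No detection calls were used. A bound that pointed away from the brighter side gave no fold. The brightest probe set was that with the highest mean signal.

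The members and the 12 further lists were chosen with earlier results of these data known. Genes that could be named were all members, the 3 highest and 3 lowest of each list, the muscle list genes past 2-fold, and the 3 genes closest to each such member. Of the marker lists of other cell types the text names a part of these genes, and gives the rest by counts, sums or medians. Some named genes, namely Six4, Cxcr4, Id1, Id2, Bhlhe41, Nfatc2, Cdh19, Cryaa, Slc6a3, Nppa, Myl7, Gja5 and Pecam1, fell outside this rule and were added after their values were seen. Alternatives were centring, quantile normalization, loess (span 0.3), floors at the 25th or 75th percentile or none, the mean of both floors as a pseudocount, the median over probe sets, leaving out probe sets of shared transcripts, and 1.5-fold and 3-fold thresholds. The steps were tested on simulated data. The software was pandas 2.3.3, numpy 2.4.6, statsmodels 0.14.6, scipy 1.17.1 and matplotlib 3.10.9 under Python 3.11.15.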

Additional observations from a re-analysis of the deposited data

How the results depend on the processing

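Over the 11 alternatives 5 to 8 members were past the threshold toward the internal pool, within 1.5 times the reported 6. The threshold was 2-fold except in the 1.5-fold and 3-fold alternatives. The count was 8 with the lower floor, with no floor and at 1.5-fold. Their median log2 ratio was 1.58 with the pseudocount, 1.80 at the 75th percentile floor and between 1.91 and 2.12 otherwise. Of the alternative values for the 8 single members, 61 kept their sign and their side of 2-fold, 8 passed 2-fold only in the alternative (Pax3 at 1.01 with the lower floor and with none, and otherwise Myf5), and 1 fell under it (Pax7). The counts over all genes depended on floor and threshold. Genes higher in the internal pool numbered 484 with the lower floor, 99 with the higher floor, 1108 with no floor, 676 at 1.5-fold and 71 at 3-fold. In that order these were 3.05%, 1.29%, 6.09%, 5.44% and 0.572% of the genes with a value. Genes higher in the external pool numbered 789, 86, 1525, 1166 and 57 in the same order, and 144 with the pseudocount. No paired analysis was possible because each group has 1 array. Precision is limited by the number of arrays. Readings near or under a floor, as for Pax3, Pax7, Myf5, Myf6 and the external reading of Pitx3, limit the fold that can be given.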
